A study of Homo sapiens with 16 samples.

Results

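The signal recognition particle (SRP) and its receptor were followed through 8 protein-coding genes, chosen by name among the 58051 genes counted. They are SRP9, SRP14, SRP19, SRP54, SRP68 and SRP72, which code for the proteins of the particle, and SRPRA and SRPRB, which code for the α and β subunits of the receptor. All 8 were counted in every library, with between 360 and 14521 fragments per gene and library, and all 8 passed the filter on low counts in each comparison. RNA came from LNCaP cells, a human prostate cancer line, in 2 experiments with 4 libraries per group. In the first, cells were reverse-transfected with Allstar negative control siRNA (siCtrl) or with siRNA against XBP1 (siXBP1) for 2 days, and in the second they received DMSO (Vehicle) or 10 µM MKC8866, an inhibitor of the RNase of IRE1α, for 24 h. Every group, both controls included, was then given 30 nM thapsigargin (TG) for 3 h. By blocking calcium uptake into the endoplasmic reticulum (ER), TG brings on ER stress, and all comparisons below are between stressed cultures. One cell line, 1 siRNA reagent and 1 dose of inhibitor were used.

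SRP is the machine that brings a ribosome to the ER membrane while it is still making a secreted or membrane protein. SRP54, a GTPase, binds the signal sequence as it leaves the ribosome. SRP9 and SRP14 form a heterodimer on the Alu domain at the other end of the SRP RNA and slow elongation until the membrane is reached. SRP19 binds the RNA of the S domain and lets SRP54 load, and SRP68 and SRP72 form the heterodimer that fills much of that domain. At the membrane SRP54 meets SRPRA, itself a GTPase, which is held there by SRPRB, a membrane-anchored GTPase, and the ribosome is handed to the SEC61 channel. IRE1α is the ER stress sensor whose RNase splices XBP1 mRNA, and spliced XBP1 codes for the transcription factor XBP1s, which is known to act on ER and secretory genes through elements with an ACGT core.

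Because the comparisons concern a transcription factor and the enzyme upstream of it, the promoters of 4 members are printed. SRP19, SRPRB and SRP54 are the members with a match to ACGTG, and all fell after both treatments. SRP14 had no match to any motif searched and did not pass the test after either. SRP68 and SRP72 also fell after both treatments and had no ACGTG, and SRP9, which did not pass the test, had a CCACG. Whether a match goes with a fall was not tested. Sequences were taken from RefSeq on GRCh38.p14, which had an entry for 7 of the 8 members and none for SRPRA. Each runs from 250 bases before to 50 after the start site, 5′ to 3′ on the strand of the gene. Capitals mark matches to ACGTG, to CCACG or to TGACGTG, the core of the unfolded protein response element, on either strand. TGACGTG contains ACGTG, and CCACG overlaps CACGT, the reverse complement of ACGTG, so that 1 stretch can hold more than 1 match.

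SRP19 (chr5:112861037-112861336, plus strand): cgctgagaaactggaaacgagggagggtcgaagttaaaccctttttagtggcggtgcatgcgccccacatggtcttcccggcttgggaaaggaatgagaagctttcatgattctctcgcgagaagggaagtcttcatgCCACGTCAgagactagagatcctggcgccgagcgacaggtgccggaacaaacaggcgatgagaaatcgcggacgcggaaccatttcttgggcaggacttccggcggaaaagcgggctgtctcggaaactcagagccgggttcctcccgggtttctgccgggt
SRPRB (chr3:133805565-133805864, plus strand): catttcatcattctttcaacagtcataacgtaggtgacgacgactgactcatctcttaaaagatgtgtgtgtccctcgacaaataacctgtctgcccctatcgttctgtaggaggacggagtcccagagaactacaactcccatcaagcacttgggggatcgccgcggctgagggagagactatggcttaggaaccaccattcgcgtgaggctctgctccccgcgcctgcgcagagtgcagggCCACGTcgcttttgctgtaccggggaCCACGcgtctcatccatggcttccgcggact
SRP54 (chr14:34982742-34983041, plus strand): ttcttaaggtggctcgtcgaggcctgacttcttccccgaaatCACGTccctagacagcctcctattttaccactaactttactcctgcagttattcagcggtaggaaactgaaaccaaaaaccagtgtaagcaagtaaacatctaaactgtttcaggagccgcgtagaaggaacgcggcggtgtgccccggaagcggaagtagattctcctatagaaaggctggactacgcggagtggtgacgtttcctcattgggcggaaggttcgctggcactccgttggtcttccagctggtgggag
SRP14 (chr15:40039153-40039452, minus strand): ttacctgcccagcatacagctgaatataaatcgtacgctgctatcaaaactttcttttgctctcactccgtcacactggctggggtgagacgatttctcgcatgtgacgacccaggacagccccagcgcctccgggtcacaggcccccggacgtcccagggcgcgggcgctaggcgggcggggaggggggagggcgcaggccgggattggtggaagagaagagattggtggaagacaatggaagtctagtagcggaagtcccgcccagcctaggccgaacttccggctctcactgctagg

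In the SRP19 promoter the capitals read CCACGTCA and begin 112 bases before the start site. This stretch holds CCACG on the printed strand and TGACGTG, with ACGTG inside it, on the other. TGACGTG was present in 1.97% of 35116 RefSeq promoters of the same length. No other member with an entry held it, and SRPRA could not be searched. The SRPRB promoter has CCACGT 7 bases before the start site, which is CCACG on one strand and ACGTG on the other, and a second CCACG 19 bases after it. This RefSeq window, from 133805565, lies inside the counted SRPRB gene, which begins at 133784033. The sequence before that earlier start was not searched. In SRP54 the match is ACGTG on the other strand, 208 bases before the start. Single CCACG matches lay 200 bases before the start in SRP9, 206 in SRP68 (in 1 of its 2 entries) and 143 in SRP72. ACGTG was found in 21.4% and CCACG in 38.1% of all promoters. Neither of the 2 SRP14 entries held any of the motifs. The ER stress response element in its full spacing, CCAAT and CCACG with 9 bases between them, was in 0.0769% of all promoters and in none of these 7 genes. A match is a run of letters in this window and says nothing of binding.

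Between 28713607 and 34509488 fragments were counted per library, and replicates of a group correlated at r = 0.997 to 0.998. The XBP1 gene count, which does not separate spliced from unspliced mRNA, was 384 ± 28.2 CPM (fragments scaled to the TMM-adjusted total of each library; mean ± SD, n = 4) in siCtrl and 53.2 ± 1.49 in siXBP1 libraries, which matches the siRNA labels. Vehicle libraries had 502 ± 24.6 CPM and MKC8866 libraries 578 ± 33.5. By edgeR's quasi-likelihood test the XBP1 count was called higher after MKC8866 (log2 fold change 0.20, SE 0.044, adjusted p = 0.00493). Prostate luminal markers were present throughout: KLK3, KLK2, FOLH1 and TMPRSS2 summed to between 1612 and 2559 CPM per library. By group the sum ranged from 2077 to 2179 CPM in siCtrl, 1612 to 1713 in siXBP1, 2176 to 2257 in Vehicle and 2508 to 2559 in MKC8866. Of 4 markers of other cell types, PTPRC (leukocytes), PECAM1 (endothelium) and KRT5 (basal epithelium) were at or below 0.103 CPM in every library, while COL1A1 (fibroblasts) lay between 24.7 and 36.5 CPM, with overlapping ranges in treated and control libraries of both experiments.

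Levels differed widely among the subunits. Scaled to exonic length (CPM per kb; mean ± SD, n = 4), SRP14 was highest in siCtrl libraries at 199 ± 15.02, followed by SRP9 at 105 ± 4.75. SRP72 stood at 70.4 ± 2.01 and SRPRA at 66.7 ± 2.49, and the ranges of this pair overlapped. SRP54 followed at 39.0 ± 1.13. SRPRB at 27.3 ± 0.882 and SRP68 at 26.6 ± 0.749 overlapped as well, and SRP19 was lowest at 5.15 ± 0.188. In Vehicle libraries the order was the same except that SRPRA, at 69.3 ± 2.11, came before SRP72, at 65.2 ± 1.59, with overlapping ranges. The Alu-domain pair thus led in both control groups and the RNA-binding S-domain protein SRP19 came last. After siXBP1 the distance between the Alu-domain pair and the rest was wider: SRP14 was at 201 ± 15.03, SRP9 at 111 ± 4.75, SRP72 at 49.7 ± 0.244 and SRPRA at 44.7 ± 1.93. SRP68, at 16.7 ± 0.552, and SRPRB, at 15.4 ± 1.02, again overlapped. In MKC8866 libraries the order was that of siCtrl, from SRP14 at 194 ± 13.6 to SRP19 at 3.598 ± 0.210, and no neighbours overlapped.

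**Figure D1:**
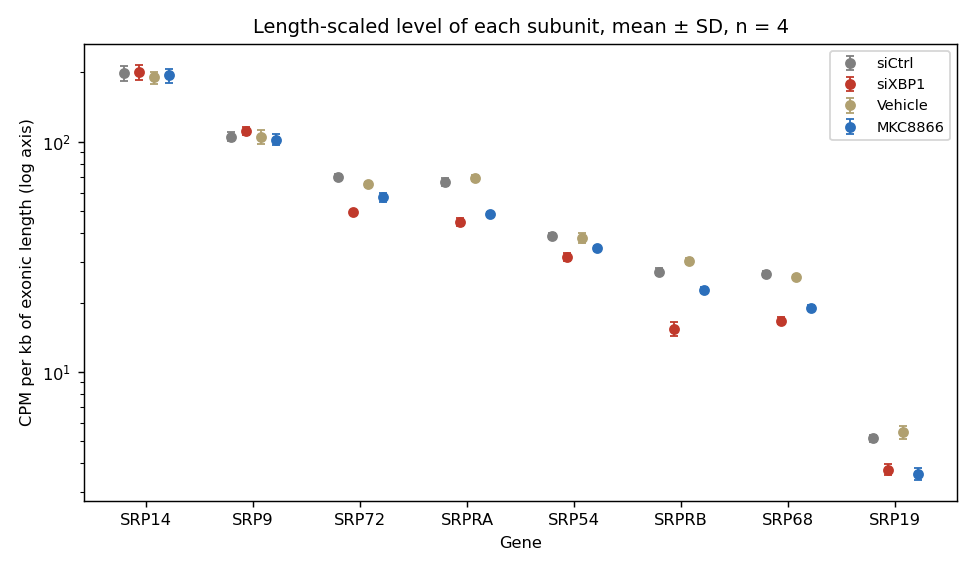
Length-scaled level of each gene in the 4 groups, as CPM per kb of exonic length on a log axis; points are means and bars the SD of 4 libraries. SRP14 and SRP9 differ little between the groups, while the other 6 genes lie lower in siXBP1 and MKC8866 than in siCtrl and Vehicle.

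Some of these counts share sequence with other genes. SRP9 has a processed copy of 261 bases, SRP9P1, to which 1860 to 2368 fragments per library were assigned, so that reads of SRP9 could be split between the pair and its level is uncertain. With the counts of both summed over the SRP9 length, SRP9 stood at 144.6 ± 5.17 CPM per kb in siCtrl libraries, still below SRP14. SRP19 shares 726 of its 3598 exonic bases with 2 genes on the same strand, ENSG00000258864 and ENSG00000272869, which had medians of 0 and 11 fragments. Fragments that overlapped more than 1 gene were left out by the authors' counting, so fragments in these stretches are missing from the SRP19 count. On the opposite strand, SRPRB shares 381 of 4180 exonic bases with RAB6B, and SRPRA shares 158 of 4167 with FAM118B and FOXRED1. The counting took no account of strand, so reads in these stretches cannot be assigned.

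The first comparison asked what loss of XBP1 did to these genes. After XBP1 knockdown 6 of the 8 genes fell and none rose, by edgeR's quasi-likelihood test (adjusted p under 0.05). Of all 21021 genes tested, 18.2% were called lower and 16.5% higher. The 6 were the genes of the S domain (SRP19, SRP54, SRP68, SRP72) and of the receptor (SRPRA, SRPRB), with falls of 18.7% to 43.6%, and the pair of the Alu domain (SRP9, SRP14) did not pass the test. The median log2 fold change of the 8 was −0.48, and that of all genes tested was 0.0050. In the same 6 genes every siXBP1 library lay below every siCtrl library, which was so for 17.5% of all genes tested. In bulk RNA, fewer cells with a transcript and less transcript per cell cannot be told apart. The luminal markers KLK3, KLK2 and TMPRSS2 also fell, by 0.78 to 0.89 on the log2 scale, and FOLH1 did not pass the test (log2 fold change −0.011). Their part in the result was not tested.

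In the receptor, SRPRB (ENSG00000144867, chromosome 3 from 133784033 to 133825772, plus strand) was at 114, 109, 115 and 118 CPM in siCtrl and 58.2, 67.4, 63.9 and 67.2 CPM in siXBP1 libraries 1 to 4. The highest siXBP1 library was far below the lowest siCtrl library. The log2 fold change was −0.83 (SE 0.048, adjusted p = 5.47e-12), a fall of 43.6% and the largest among the 8 genes. SRPRA (ENSG00000182934, chromosome 11 from 126262919 to 126269144, minus strand) was at 288, 269, 286 and 269.5 CPM in siCtrl and 198, 181, 181 and 186 CPM in siXBP1 libraries. The groups were again apart, with a log2 fold change of −0.57 (SE 0.042, adjusted p = 2.30e-10).

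In the S domain, SRP68 (ENSG00000167881, chromosome 17 from 76038775 to 76072653, minus strand) fell most. It was at 209, 196, 207 and 201 CPM in siCtrl and 132, 122, 127 and 129 CPM in siXBP1 libraries, a log2 fold change of −0.67 (SE 0.040, adjusted p = 8.20e-12). Its partner SRP72 (ENSG00000174780, chromosome 4 from 56466915 to 56503680, plus strand) was at 328, 344, 323 and 327 CPM in siCtrl and 234, 233, 232 and 235 CPM in siXBP1 libraries. The 4 siXBP1 libraries were nearly identical for this gene, and the log2 fold change was −0.50 (SE 0.037, adjusted p = 3.19e-10). SRP19 (ENSG00000153037, chromosome 5 from 112861222 to 112869788, plus strand) was at 19.04, 17.6, 19.05 and 18.4 CPM in siCtrl and 12.4, 13.7, 13.9 and 14.1 CPM in siXBP1 libraries. This least abundant member had a log2 fold change of −0.45 (SE 0.065, adjusted p = 8.31e-06). SRP54 (ENSG00000100883, chromosome 14 from 34981957 to 35029567, plus strand), the signal-sequence binder, was at 155, 147, 150.3 and 156 CPM in siCtrl and 124, 120.1, 131 and 119 CPM in siXBP1 libraries. Its log2 fold change of −0.30 (SE 0.042, adjusted p = 5.84e-06) was the smallest among the genes that fell.

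The Alu-domain pair did not pass the test. SRP14 (ENSG00000140319, chromosome 15 from 40035739 to 40039188, minus strand) was at 399, 412, 356 and 426 CPM in siCtrl and 381, 432, 372 and 424 CPM in siXBP1 libraries. The ranges lay over each other, and the 95% interval of the log2 fold change was −0.095 to 0.13 around 0.016 (adjusted p = 0.858). SRP9 (ENSG00000143742, chromosome 1 from 225777813 to 225790466, plus strand) was at 178, 175, 179.6 and 194 CPM in siCtrl and 180.5, 195, 199 and 194 CPM in siXBP1 libraries. The log2 fold change was 0.084, with an interval of −0.0050 to 0.17 and an adjusted p of 0.144. It passed the test as higher without siCtrl replicate 4 (0.13, adjusted p = 0.0313) or without siXBP1 replicate 1 (0.12, adjusted p = 0.0385). With the fragments of SRP9P1 added it was 0.082 (adjusted p = 0.143).

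**Figure D2:**
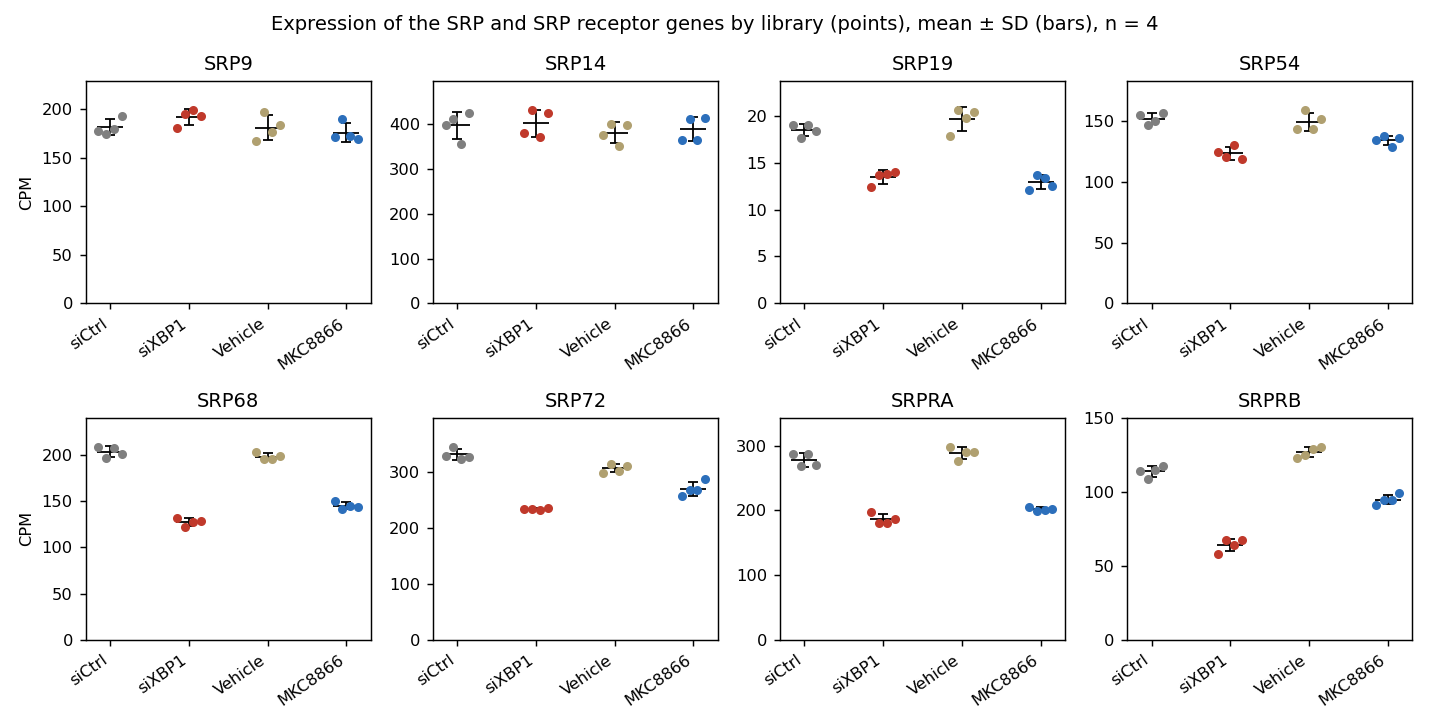
CPM of each gene in every library (points, in replicate order within a group) with the mean and SD of each group (bars, n = 4); each panel starts at 0. In the 6 panels from SRP19 to SRPRB all siXBP1 points lie below all siCtrl points and all MKC8866 points below all Vehicle points, whereas in the SRP9 and SRP14 panels the groups overlap.

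The second comparison asked the same of inhibition of IRE1α. After MKC8866 treatment the same 6 genes were called lower and again none was called higher. Of all 21045 genes tested, 3.11% were called lower and 1.36% higher, so the members' count was read against a much smaller background than after the knockdown. The number of higher calls, 287, depended on single libraries. It was 188 without Vehicle replicate 3, 180 without MKC8866 replicate 1, 184 without replicate 3, 191 without replicate 4 and 484 without replicate 2 of MKC8866. The median log2 fold change of the 8 was −0.30 and that of all genes tested was 0.0027. Every MKC8866 library lay below every Vehicle library in these 6 genes, as in 5.16% of all genes tested. Libraries of this experiment with the same replicate number deviated together. A fit with that number as a block called 7.05% of all genes lower, and the same 6 members. Values for MKC8866 are from the fit without this block unless the block is named. Of the luminal markers, KLK3 was higher after MKC8866 (0.46 (SE 0.041, adjusted p = 2.75e-08)), and the other 3 did not pass the test. With the block FOLH1 was called higher as well (0.065, adjusted p = 0.0234).

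SRP19 fell most among the members. It was at 17.9, 20.6, 19.8 and 20.4 CPM in Vehicle and 12.1, 13.8, 13.4 and 12.6 CPM in MKC8866 libraries. The highest treated library was well below the lowest control, and the log2 fold change was −0.61 (SE 0.067, adjusted p = 9.24e-07), a fall of 34.3%. SRP68 was at 203, 196, 195 and 198 CPM in Vehicle and 150.0, 142, 145 and 144 CPM in MKC8866 libraries, with a log2 fold change of −0.45 (SE 0.038, adjusted p = 1.10e-08). For SRP72, values were 298, 314, 302 and 310.0 CPM in Vehicle and 257, 267, 267 and 286 CPM in MKC8866 libraries. Here the highest treated library came close to the lowest control, and the log2 fold change was −0.19 (SE 0.039, adjusted p = 0.00424).

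SRP54 changed least. It was at 143, 159, 143 and 151 CPM in Vehicle and 134, 138, 129 and 136 CPM in MKC8866 libraries, a log2 fold change of −0.15 (SE 0.043, adjusted p = 0.0404). The groups did not overlap, and in the blocked fit the adjusted p was 3.44e-05. Without the block, the call was lost on leaving out Vehicle replicate 2 (−0.12, adjusted p = 0.149), Vehicle replicate 4 (−0.15, adjusted p = 0.116), MKC8866 replicate 1 (−0.16, adjusted p = 0.0707), MKC8866 replicate 3 (−0.14, adjusted p = 0.158) or MKC8866 replicate 4 (−0.16, adjusted p = 0.0554).

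Both receptor subunits fell. SRPRA was at 298, 277, 289.9 and 289.5 CPM in Vehicle and 206, 199, 199.96 and 203 CPM in MKC8866 libraries, and the log2 fold change was −0.52 (SE 0.037, adjusted p = 7.29e-10). SRPRB was at 123, 125, 129 and 130.4 CPM in Vehicle and 91.1, 94.4, 94.8 and 99.0 CPM in MKC8866 libraries, with a log2 fold change of −0.42 (SE 0.041, adjusted p = 1.17e-07). Treated and control libraries were apart for both subunits.

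SRP14 and SRP9 again did not pass the test. SRP14 was at 376, 400.3, 351 and 398 CPM in Vehicle and 365, 411, 366 and 413 CPM in MKC8866 libraries, and its log2 fold change of 0.028 had an interval of −0.072 to 0.13 (adjusted p = 0.862). SRP9 was at 167, 197, 177 and 184 CPM in Vehicle and 171, 190.4, 173 and 169.7 CPM in MKC8866 libraries, with a log2 fold change of −0.042, an interval of −0.14 to 0.058 and an adjusted p of 0.766. The groups overlapped for both genes. These intervals are bounds on a change and do not show that the levels were equal.

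The responses to the 2 treatments were set against each other as an interaction over all 16 libraries. SRPRB, SRP72 and SRP68 fell more after XBP1 knockdown than after MKC8866. The difference of the log2 fold changes was −0.40 (SE 0.062, adjusted p = 1.19e-05) for SRPRB, −0.31 (SE 0.052, adjusted p = 3.35e-05) for SRP72 and −0.22 (SE 0.052, adjusted p = 0.00220) for SRP68. Among the 20357 genes tested, 12.7% were called lower and 10.6% higher in this contrast. For SRP54 the difference was −0.14 (SE 0.059, adjusted p = 0.0803). It passed with the replicate number as a block in both experiments (adjusted p = 0.0284), though these numbers are not a pairing in the knockdown experiment. It also passed without siXBP1 replicate 3 (−0.17, adjusted p = 0.0368) and without Vehicle replicate 2 (−0.18, adjusted p = 0.0262). SRP19, which fell more after MKC8866 in value, had a difference of 0.16 with an interval of −0.029 to 0.34 (adjusted p = 0.238), so that an unequal response was not shown. For SRPRA the difference had an interval of −0.17 to 0.055 around −0.057 (adjusted p = 0.515). For SRP9 the difference was 0.13 (adjusted p = 0.190) and for SRP14 −0.0088 (adjusted p = 0.960). The experiments differ in reagent, duration and control, and these cannot be told apart from the kind of inhibition.

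The control groups themselves were compared because the interaction rests on both. SRPRB was lower in siCtrl than in Vehicle libraries, by −0.16 (SE 0.041, adjusted p = 0.0105) on the log2 scale, a call that was lost without Vehicle replicate 4 (−0.14, adjusted p = 0.0563). All 4 siCtrl values of SRP72 lay above all Vehicle values, and its log2 difference was 0.11 (SE 0.038, adjusted p = 0.0511). SRP72 passed in DESeq2 (0.11, adjusted p = 0.0195), with all 16 libraries in one fit (0.11, adjusted p = 0.0423) and without Vehicle replicate 2 (0.13, adjusted p = 0.0356). The other 6 genes overlapped between the control groups and had log2 differences between −0.089 and 0.063. In this contrast 6.34% of 21092 genes were called lower and 7.66% higher. XBP1 itself was called lower in siCtrl than in Vehicle libraries (−0.39 (SE 0.047, adjusted p = 1.98e-06)). Transfection and the experiment cannot be told apart here.

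**Figure D3:**
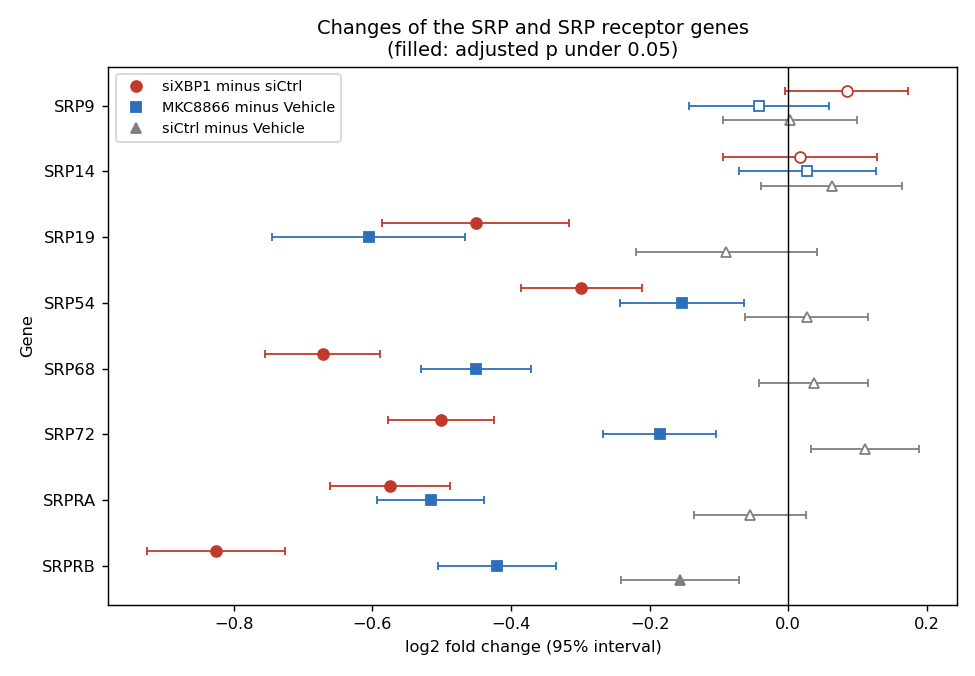
Log2 fold change of each gene with its 95% interval for siXBP1 minus siCtrl, MKC8866 minus Vehicle and siCtrl minus Vehicle; filled symbols passed an adjusted p under 0.05. The S-domain and receptor genes lie to the left of 0 in both treatment comparisons. The intervals of SRP9 and SRP14 include 0, and SRPRB is the only gene shown that was called between the controls.

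Subunits that act as partners were also compared within each library. The ratio of partners within a library does not depend on how libraries are scaled, and 4 ratios of CPM per kb were tested in both comparisons with an exact permutation test (two-sided, 4 against 4 libraries, smallest possible p = 0.0286) and adjusted over the 8 tests. For MKC8866 this test ignored the pairing of same-numbered libraries, and a paired test is given below. None of the ratios reached an adjusted p under 0.05, and the smallest value the adjustment gave was 0.0571. With this smallest p and 8 tests, 1 ratio could not pass by itself, however clearly its libraries were apart. The adjusted values therefore do not show that the ratios were unchanged. The log2 ratio of SRP68 to SRP72 was −1.35, −1.51, −1.34 and −1.40 in siCtrl and −1.53, −1.63, −1.57 and −1.57 in siXBP1 libraries. It was −1.26, −1.38, −1.33 and −1.35 in Vehicle and −1.48, −1.62, −1.58 and −1.70 in MKC8866 libraries. All treated libraries lay below all their controls, with mean differences of −0.17 and −0.26 (exact p = 0.0286, adjusted p = 0.0571 for each).

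The log2 ratio of SRP54 to SRP19 was 2.88, 2.83, 2.74 and 2.78 in Vehicle and 3.36, 3.21, 3.15 and 3.32 in MKC8866 libraries. Every treated library was higher, by 0.45 on average (exact p = 0.0286, adjusted p = 0.0571). After siXBP1 the mean difference was 0.15, with 3 of 4 libraries above all controls (exact p = 0.0571, adjusted p = 0.0914). For the receptor, the log2 ratio of SRPRA to SRPRB was 1.34, 1.31, 1.32 and 1.20 in siCtrl and 1.77, 1.43, 1.51 and 1.47 in siXBP1 libraries. All siXBP1 libraries were higher, by 0.25 on average (exact p = 0.0286, adjusted p = 0.0571), and siXBP1 replicate 1 was highest. Without it the difference was 0.18. After MKC8866 the difference was −0.095 (exact p = 0.114, adjusted p = 0.152), and the ratio was lower in 4 of 4 pairs of same-numbered libraries, by −0.071 to −0.12. An exact sign-flip test over these pairs (two-sided) gave p = 0.125, the smallest it can give with 4 pairs. For SRP9 to SRP14 the differences were 0.067 after siXBP1 (exact p = 0.4) and −0.068 after MKC8866 (exact p = 0.371), and both groups overlapped.

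**Figure D4:**
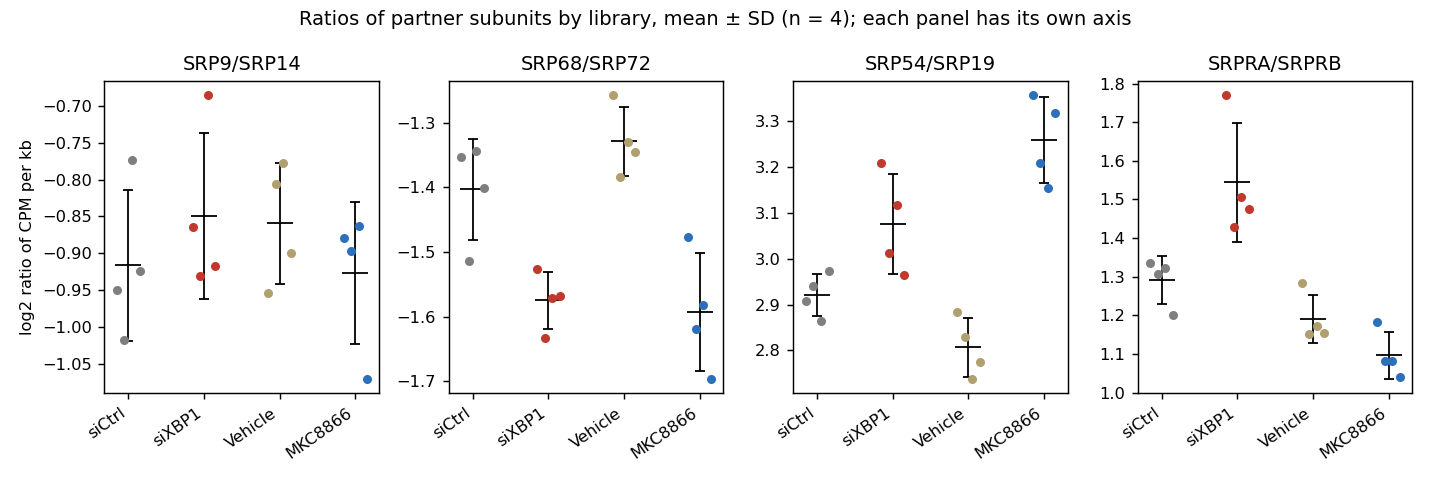
Log2 ratio of CPM per kb of partner subunits in each library (points) with the group mean and SD (bars, n = 4); each panel has its own axis, which does not start at 0. The SRP68/SRP72 ratio is lower in all treated libraries than in their own controls. The SRP54/SRP19 ratio has its highest group mean in MKC8866, where points overlap those of siXBP1. The SRPRA/SRPRB ratio is highest in siXBP1 libraries.

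The next steps of protein entry into the ER were described through 30 further genes in 5 lists. Of 13 genes of the SEC61 channel and its associated proteins, 11 were lower and 1 was higher after XBP1 knockdown, with a median log2 fold change of −0.76. After MKC8866, 10 were lower and none was higher, with a median of −0.41. The largest fall after the knockdown was in SERP1, a small protein bound to the channel, with a log2 fold change of −1.50 (SE 0.057, adjusted p = 4.11e-15). After MKC8866 it was in SSR2, a subunit of the translocon-associated TRAP complex. SSR2 was at 227, 227, 227 and 228 CPM in Vehicle and 114, 120.0, 126 and 116 CPM in MKC8866 libraries, a log2 fold change of −0.94 (SE 0.040, adjusted p = 4.01e-14). SEC61A2, the minor α subunit of the channel, was the gene called higher after the knockdown (0.20 (SE 0.065, adjusted p = 0.0214)). This call was lost without siCtrl replicate 3 (0.17, adjusted p = 0.0678), siXBP1 replicate 2 (0.19, adjusted p = 0.0543) or siXBP1 replicate 4 (0.19, adjusted p = 0.0558).

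Of the 5 subunits of signal peptidase, which cuts the signal sequence off in the ER, 3 were lower and none was higher after each treatment, and 5 were lower after MKC8866 with the replicate block. SEC11C, a catalytic subunit, fell most after the knockdown (−0.44 (SE 0.051, adjusted p = 3.78e-07)). SPCS3, an accessory subunit, fell most after MKC8866 (−0.38 (SE 0.049, adjusted p = 8.25e-06)). Their medians were −0.38 and −0.29. The changes of these genes lay within the range of the SRP genes themselves.

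Routes to the ER that do not use SRP changed less in value. Of 8 such genes, which include the BAG6 complex and the GET receptor for tail-anchored proteins, 1 was lower and 1 was higher after the knockdown, and 1 was lower and none was higher after MKC8866 (3 lower with the replicate block). Their medians were −0.025 and −0.050. The gene called lower was TMEM208 in both comparisons (−0.30 (SE 0.050, adjusted p = 6.57e-05) after siXBP1 and −0.24 (SE 0.054, adjusted p = 0.00885) after MKC8866). GET4, a partner of BAG6, was called higher after the knockdown, with 5.47, 8.59, 3.96 and 3.85 CPM in siCtrl and 6.24, 8.05, 16.3 and 9.86 CPM in siXBP1 libraries. These ranges overlapped, and replicate 3 stood apart among the siXBP1 libraries. The log2 fold change was 0.89 (SE 0.23, adjusted p = 0.00464), with an adjusted p of 0.0675 in DESeq2. GET4 was also lower in siCtrl than in Vehicle libraries (−0.61, adjusted p = 0.0109), and its Vehicle mean was 8.36 CPM. No test compared these genes with the SRP genes.

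The nascent polypeptide-associated complex shares the ribosome exit with SRP. Of its 2 genes, BTF3 was called higher after the knockdown (0.11 (SE 0.043, adjusted p = 0.0438)), and NACA had a log2 fold change of 0.0081 (adjusted p = 0.937). The BTF3 call was lost on leaving out siCtrl replicate 2 or 3 or siXBP1 replicate 2, 3 or 4 (log2 fold changes 0.098 to 0.12, adjusted p = 0.0586 to 0.108). Neither was called after MKC8866 (log2 fold changes 0.0099 and −0.11), and NACA was called lower there with the replicate block (adjusted p = 2.24e-04) and without MKC8866 replicate 2 (−0.15, adjusted p = 0.0116).

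The RNA of the particle itself could not be followed. RN7SL1 was listed at 0 in all 16 libraries, and RN7SL2 was counted with 11.5, 20.1, 11.1 and 17.2 CPM in siCtrl, 16.5, 34.5, 9.75 and 10.9 CPM in siXBP1, 28.8, 8.59, 8.42 and 21.7 CPM in Vehicle and 11.3, 8.87, 17.3 and 19.5 CPM in MKC8866 libraries. Values within a group were spread more widely than the groups, and neither comparison passed the test (adjusted p = 0.511 and 0.756). Fragments with more than 1 place in the genome were not counted, and these loci have near-identical copies, so the counts are no measure of SRP RNA.

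Over the 29 genes of these lists that were tested, 15 were lower and 3 were higher after the knockdown, with a median log2 fold change of −0.24. Without siCtrl replicate 3, siXBP1 replicate 2 or siXBP1 replicate 4, only 1 was higher, and in DESeq2 2 were. After MKC8866 14 were lower and none was higher, with a median of −0.24 (19 lower with the replicate block). In the interaction 7 were called lower, all of the SEC61 list, and 1 higher. With the replicate block set in both experiments, 10 were lower, all of the SEC61 list, and 3 higher.

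**Figure D5:**
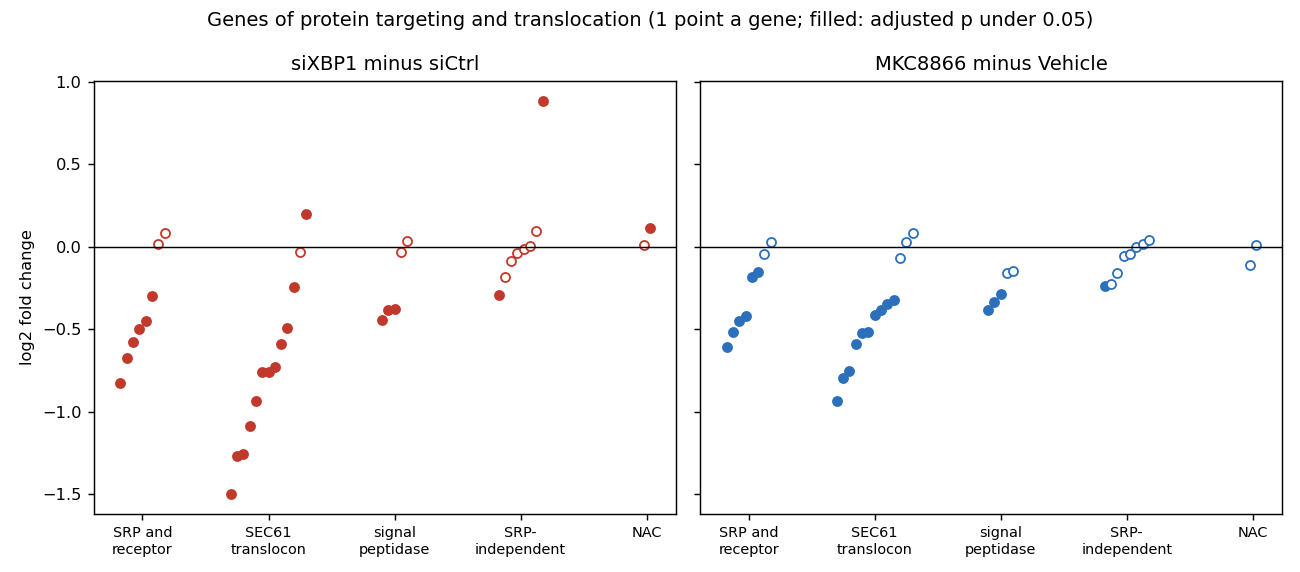
Log2 fold change of each gene of 5 groups (SRP and receptor, SEC61 channel and associated, signal peptidase, SRP-independent targeting, and the nascent polypeptide-associated complex, NAC) after siXBP1 (left) and MKC8866 (right); each point is 1 gene and filled points passed an adjusted p under 0.05. Filled points lie below 0 for most SEC61 genes and for 6 of 8 SRP genes, and most SRP-independent genes lie near 0 with open points.

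For each member the 3 genes with the most similar pattern were taken from 10250 genes, by Pearson's r of log2 CPM relative to the control group of the same experiment, over 16 libraries. The libraries fall into treated and control groups, so r reflects mostly the size of the step in the 2 experiments, and it is a description. Functions are named below for only some of the genes, mostly those of the ER and Golgi. UBN2 and MSTO1, the closest matches of SRP72 and SRPRA, are among those left without one. Whether ER and Golgi genes were more frequent than among all genes compared was not tested. For SRPRB these were TBL2 (r = 0.993), LMAN1 (r = 0.992) and CALU (r = 0.992), with LMAN1 a cargo receptor between ER and Golgi and CALU a calcium-binding protein of the ER. For SRPRA they were MSTO1 (r = 0.994), COG3 (r = 0.993) and ALG2 (r = 0.992), of which COG3 is a subunit of a Golgi tethering complex and ALG2 a mannosyltransferase of N-glycan assembly. SRP68 was closest to ARCN1 (r = 0.997), GORASP2 (r = 0.993) and TMEM39A (r = 0.993), where ARCN1 is the δ subunit of the COPI coat and GORASP2 a Golgi stacking protein. For SRP72 the list read UBN2 (r = 0.992), LNPEP (r = 0.987) and GOLGB1 (r = 0.986), with GOLGB1 the golgin giantin. SRP19 was matched by HSPA13 (r = 0.985), TIMM17A (r = 0.974) and PJA2 (r = 0.974), the first an ER-associated HSP70 family protein and the second a subunit of the mitochondrial import channel. SRP54 was matched by PDIA6 (r = 0.968), ARFGAP3 (r = 0.964) and ARL1 (r = 0.964), the first a protein disulfide isomerase of the ER. For the Alu-domain pair the values were lower, with RPS3AP6 (r = 0.918) and ACAT1 (r = 0.901) given for SRP9 and HMGN5 (r = 0.925), TAF15 (r = 0.905) and RPP40 (r = 0.905) for SRP14.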

How the data were processed

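RNA-seq of 16 LNCaP libraries, 4 per group by the sample labels, was analysed from 1 table of gene counts. The authors prepared TruSeq stranded paired-end libraries, aligned reads to GRCh38 with STAR 2.5.2a and counted fragments with featureCounts 1.5.0-p3 on Ensembl 85. The deposited counts are raw. The counting ignored strand and left out multimapping fragments and those overlapping more than 1 gene. The deposited exonic length, another value, was used only for CPM per kb. The labels do not say whether replicates were separate cultures, so p-values measure only the spread between these libraries.

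The whole table was fitted in edgeR 4.0.16 (R 4.3.3, limma 3.58.1) with TMM normalization and the two-sided quasi-likelihood F test, 1 fit per comparison, keeping a gene when some library of each group exceeded 5 counts, the study's filter. A call means a p under 0.05 after Benjamini-Hochberg adjustment over all genes tested. The interaction used 16 libraries and 20357 genes. SE and 95% intervals came from the same tests, and CPM used TMM factors over all libraries. At these depths precision is limited mainly by the spread between replicates for the members other than SRP19, which had the fewest fragments. The coefficient of biological variation was 5.40% for the knockdown and 4.97% for the inhibitor.

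Groups share replicate numbers. Same-numbered libraries' deviations from their group means correlated at r = 0.121 to 0.422 over 15039 genes in the inhibitor experiment. The numbers were therefore taken to pair its libraries. In the knockdown experiment r was −0.0044 to 0.074. The main fits, those of MKC8866 and of the interaction included, held no block. Their SE, intervals and adjusted p ignore the pairing, and the blocked fit served as an alternative.

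The 8 genes and the lists were chosen with earlier results of these data known. The genes named are the members, XBP1, markers, overlapping genes and copies, the called gene with the largest change per list, direction and treatment, and the 3 genes most like each member (mean of at least 10 CPM). A luminal marker of the chosen list and 1 of the genes most like SRP9 are not reported here. NACA and RN7SL2 were named after their values were seen. Alternatives were DESeq2 1.42.0 (the study's tool), its size factors in edgeR, other count filters, the replicate block, all libraries in one fit, an adjusted p under 0.01 and leaving out each library. Summing SRP9 and SRP9P1 was added after seeing the data. Fits were tested on simulated data. Other steps used Python 3.11.15, numpy 2.4.6, pandas 2.3.3, scipy 1.17.1 and matplotlib 3.10.9.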

Additional observations from a re-analysis of the deposited data

Results flagged for a closer look

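SRP9 in MKC8866 replicate 2 stood apart from the other 3 libraries of its group, at 190.4 CPM against 169.7 to 173.2 CPM, with a gap to the nearest library of 0.834 of the group's range (above Dixon's 95% limit for 4 samples). It was 1 of 32 groups examined, and chance alone gives about 1 in 20. Without this library the SRP9 log2 fold change after MKC8866 was −0.087 (adjusted p = 0.342 in edgeR), and it was not called with it either.

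For 3 genes the interaction test separated the responses to the treatments: SRP68 by −0.22, SRP72 by −0.31 and SRPRB by −0.40 on the log2 scale (knockdown minus inhibitor; adjusted p = 0.00220, 3.35e-05 and 1.19e-05 in edgeR). Each fell more after XBP1 knockdown, and each kept this call when any 1 of the 16 libraries was left out.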

How the results depend on the processing

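After XBP1 knockdown and after MKC8866, 6 genes were called lower in every alternative run except that SRP54 dropped out after MKC8866 at an adjusted p under 0.01 and without 5 of the 8 libraries, 1 at a time. No result reversed a call. Leaving out 1 library gave 0 to 1 members called higher after the knockdown, 1 to 3 list genes called higher after it, and, between siCtrl and Vehicle, 0 to 1 members called lower and 0 to 1 higher. At an adjusted p under 0.01, 1 list gene was higher after the knockdown and 0 members were lower in siCtrl than in Vehicle. In DESeq2, and with all 16 libraries in one fit, 1 member (SRP72) was called higher in siCtrl. The replicate block raised the calls after MKC8866 from 654 to 1484 lower genes and from 287 to 1262 higher genes. For the knockdown, where the numbers are not a pairing, the block gave 3846 and 3477 against 3836 and 3475, and BTF3 was no longer called (adjusted p = 0.0550). The block changed the call of no member except SRP54 in the interaction (adjusted p = 0.0284), where it was set in both experiments. Leaving out 1 library gave 180 to 484 higher genes after MKC8866. At an adjusted p under 0.01, 139 genes were higher after MKC8866. The depth left SRP19, with 360 to 694 fragments per library, the least precise of the members.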
